A study of Rattus norvegicus with 98 samples.

Results

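Interferon-stimulated genes were followed here through 9 members, chosen by symbol: the transcription factors Irf1 and Irf7, and the antiviral genes Isg15, Ifit3, Oas1a, Mx1, Mx2, Rsad2 and Ifi27. They are 9 of 14217 genes with a probe set of their own on the array, and the annotation gave them 10 probe sets out of 31042 tested, with 2 probe sets for Mx2 and 1 for each other gene. Each of 98 male F344/NCrl rats, 8 weeks old, gave 1 Affymetrix Rat230_2 array of epithelial cells from nose level II, so every replicate was a separate animal. Cells were freed with proteases from the lateral meatus and nasoturbinate after the maxilloturbinate and the olfactory epithelium had been removed, and the labels call them mainly transitional with some respiratory epithelium.

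The groups lay in 2 array sets. In the later set, called array set 2, 4 rats had 40 ul of 400 mM formaldehyde instilled into each nostril and 4 rats the same volume of distilled water, 4 rats inhaled 15 ppm formaldehyde and 4 inhaled air, all collected at 6 h. In array set 1, rats inhaled air or formaldehyde at 0.7, 2 or 6 ppm, with collection 6 h, 24 h, 5, 8 or 19 days after the first exposure began and 4 rats per group except 5 rats for air at 8 days and for 2 ppm at 5 days. Inhalation was whole-body, 6 h a day and 5 days a week. All rats were of 1 inbred strain.

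Interferons are secreted proteins that cells release after sensing viral nucleic acid or other danger signals, and that act on receptors of the same and of neighbouring cells. The receptors signal through Janus kinases to transcription factors such as Stat2 and Irf9, which act at an interferon response element before the start of the target genes, while interferon gamma acts at a gamma-activated sequence. Irf1 and Irf7 bind closely related elements, and Irf7 also drives the genes of the interferons themselves. Airway epithelium is among the tissues in which these genes are known to respond to infection.

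To show where these elements lie, the promoters of the members were read from a set of RefSeq promoters (build GRCr8). The set held those of 7 of the 9 members, all but Isg15 and Mx2. The element core searched was GAAANNGAAA, the gamma-activated sequence TTCNNNGAA and an NF-kappaB form GGGANNTTCC, each on both strands of 300 bases around the start. The core stood in 5 of the 7 promoters, those of Irf7, Ifit3, Oas1a, Rsad2 and Ifi27, and in 3.92% of 33469 promoters of the same length. The gamma-activated sequence stood in Irf1 and Oas1a and in 8.87% of all promoters. The NF-kappaB form was in none of the 7 and in 1.3% of all promoters, and the Mx1 promoter held none of these letters. The starts were those of the promoter set, and they were not always the outer end of the annotated gene. For Irf7 the stretch shown lies within the annotated gene, and for Oas1a and Rsad2 it overlaps the gene. The stretches below are shown because they carry the matched letters: Irf1 holds a gamma-activated sequence and no core, Oas1a holds both, and the other members shown hold the core. Each runs 5′ to 3′ on the strand of its gene, the capitals mark the matches (a core on the opposite strand reads as its reverse complement), and 2 cores of Oas1a overlap.
Irf1, chr10:38417763-38417831, plus strand, gamma-activated sequence: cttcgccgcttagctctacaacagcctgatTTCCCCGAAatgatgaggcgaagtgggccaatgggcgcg
Irf7, chr1:205800053-205800122, minus strand, interferon response element core: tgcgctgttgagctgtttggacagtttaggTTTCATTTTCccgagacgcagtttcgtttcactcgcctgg
Ifit3, chr1:241527252-241527321, plus strand, interferon response element core: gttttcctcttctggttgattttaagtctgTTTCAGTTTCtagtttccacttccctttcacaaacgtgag
Oas1a, chr12:41330237-41330465, plus strand, gamma-activated sequence and, nearer the start, overlapping cores: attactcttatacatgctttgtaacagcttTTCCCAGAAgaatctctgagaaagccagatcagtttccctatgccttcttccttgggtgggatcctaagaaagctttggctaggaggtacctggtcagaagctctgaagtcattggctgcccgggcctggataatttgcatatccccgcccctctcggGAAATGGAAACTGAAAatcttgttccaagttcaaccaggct
Rsad2, chr6:48788228-48788297, minus strand, interferon response element core: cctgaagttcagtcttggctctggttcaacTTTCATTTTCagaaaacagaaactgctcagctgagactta
Ifi27, chr6:128355113-128355267, plus strand, 2 interferon response element cores: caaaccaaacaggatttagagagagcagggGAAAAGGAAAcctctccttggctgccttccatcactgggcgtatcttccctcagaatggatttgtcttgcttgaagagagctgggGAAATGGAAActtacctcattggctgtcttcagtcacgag

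All values are the deposited log2 signals, on which a difference of 1 is a doubling. Array medians lay between 5.93 and 6.07 in all 98 arrays, and the lowest correlation between arrays of the same group was 0.9621. Precision is limited by the number of rats, since arrays carry no counts. Epithelial identity was borne by Epcam, the epithelial adhesion molecule, whose probe set had a mean of 12.22, above 99.13% of probe sets. Markers of the olfactory epithelium were present too: Omp, the olfactory marker protein, averaged 11.96, although that epithelium was labelled as discarded.

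The members sat at different places in the range of the array. Over the 98 arrays the mean signal was 12.67 for Ifi27, higher than 99.41% of probe sets, and 3.45 for the second Mx2 probe set (1369202_at), higher than only 4.475% of them, so that probe set is dim. The main probe sets of the other members averaged between 6.76 (Mx2, 1387283_at) and 9.60 (Irf7). Spread between rats of 1 group differed as much: the within-group SD was 0.70 for Ifit3, larger than for 98.63% of probe sets, and 0.12 for Ifi27, larger than for 12.17%. Mx1, Isg15 and Rsad2 had within-group SDs of 0.57, 0.56 and 0.55. Instilled rats had the highest group mean of all 24 groups for Irf1, Irf7, Isg15, Ifit3, Oas1a, Mx1 and Rsad2, whereas for Ifi27 they ranked 19 and for Mx2 (1387283_at) 11.

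The first comparison was of instilled formaldehyde with instilled water at 6 h. Ifit3 and Isg15 rose 11.3-fold and 6.68-fold, Oas1a rose 2.79-fold, and Irf7, Mx1 and Irf1 rose 2.16-fold, 2.07-fold and 2.05-fold. In all, 6 of the 10 member probe sets passed an adjusted p of 0.05 in limma and all 6 were higher after formaldehyde, beside 22.2% of all probe sets called in either direction and 9.83% called higher. The median log2 change was 1.04 over the 10 member probe sets and 0.02 over all probe sets. All instilled rats lay above all water rats for 5 of the 6, Mx1 being the exception, where groups not overlapping made up 18.7% of all probe sets. Mx2, Rsad2 and Ifi27 did not pass.

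Irf1 (1368073_at), a transcription factor that interferon gamma induces, had log2 signals of 10.71, 10.36, 10.54 and 10.60 in the instilled rats, against 9.27, 9.75, 9.43 and 9.63 in the water rats. Irf7 (1383564_at) had 10.52, 10.73, 10.90 and 10.69 in the instilled rats, against 9.18, 9.45, 9.75 and 10.01 in the water rats. For both regulators every instilled rat was above every water rat. The log2 changes were 1.03 ± 0.19 for Irf1 (SE, limma, adjusted p = 9.96e-06) and 1.11 ± 0.29 for Irf7 (SE, limma, adjusted p = 0.002886).

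Isg15 (1382314_at), a ubiquitin-like protein that is attached to other proteins, had 11.10, 11.03, 11.57 and 12.20 in the instilled rats, against 8.17, 8.27, 9.25 and 9.26 in the water rats. Ifit3 (1376908_at), which with related proteins binds viral RNA and restrains its translation, had 10.36, 10.48, 11.43 and 11.77 in the instilled rats, against 6.88, 7.71, 7.87 and 7.58 in the water rats. The lowest instilled rat exceeded the highest water rat by more than 1 on the log2 scale for both genes. Group means were 11.48 ± 0.54 in instilled rats and 8.74 ± 0.60 in water rats for Isg15 (SD, n = 4 each), and 11.01 ± 0.70 in instilled rats and 7.51 ± 0.44 in water rats for Ifit3 (SD, n = 4 each). The log2 change was 2.74 ± 0.39 for Isg15 (SE, limma, adjusted p = 4.649e-08) and 3.50 ± 0.49 for Ifit3 (SE, limma, adjusted p = 2.911e-08). The Ifit3 promoter holds the core shown above.

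Oas1a (1371152_a_at), an enzyme that senses double-stranded RNA and activates RNA breakdown, had 9.01, 8.41, 9.26 and 9.10 in the instilled rats, against 7.26, 7.37, 7.62 and 7.60 in the water rats. The groups were separate, with a log2 change of 1.48 ± 0.27 (SE, limma, adjusted p = 1.539e-05). Mx1 (1371015_at), a dynamin-like GTPase that blocks virus replication, had 10.16, 8.02, 8.89 and 8.45 in the instilled rats, against 7.34, 7.55, 8.22 and 8.21 in the water rats. Here the lowest instilled rat lay below the 2 highest water rats, and the log2 change was 1.05 ± 0.40 (SE, limma, adjusted p = 0.04453). The Mx1 call rested on single animals: without instilled rat 365 the change was 0.62 (adjusted p = 0.2998), and it was also lost without instilled rat 372 (1.05, adjusted p = 0.06784) and without water rats 352 (0.89, adjusted p = 0.1431) and 354 (0.96, adjusted p = 0.1139).

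Mx2, the related GTPase, had 7.94, 6.10, 6.93 and 6.31 in the instilled rats, against 5.81, 5.91, 6.63 and 6.58 in the water rats at its main probe set (1387283_at). Its dim probe set (1369202_at) had 3.49, 3.40, 3.77 and 3.51 in the instilled rats, against 3.43, 3.27, 3.43 and 3.62 in the water rats. Groups overlapped at both, and the log2 changes of 0.59 and 0.11 did not pass (adjusted p = 0.1354 and 0.3995, limma). Without instilled rat 369 the change at the main probe set was 0.83 and passed (adjusted p = 0.03939). For Mx1 and for the main Mx2 probe set, instilled rat 365 was the highest of the group.

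Rsad2 (1370913_at), or viperin, an enzyme that makes a nucleotide that stops viral RNA synthesis, had 10.86, 10.47, 10.42 and 11.44 in the instilled rats, against 10.11, 10.10, 9.63 and 10.58 in the water rats. The change of 0.69 ± 0.38 did not pass (SE, limma, adjusted p = 0.2015). Against air of the same array set, in place of water, Rsad2 was higher by 1.55 and passed (adjusted p = 0.0009678), Mx1 no longer did (0.85, adjusted p = 0.09352), and 6 of 10 member probe sets were called among 30.1% of all. Ifi27 (1387770_at), a small membrane protein that interferon induces in other tissues, had 12.56, 12.49, 12.66 and 12.52 in the instilled rats, against 12.50, 12.57, 12.61 and 12.54 in the water rats. Its change was 0.01 with a 95% interval of -0.16 to 0.17, on a signal that lies near the top of the array's range and with 2 cores in its promoter.

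**Figure D1:**
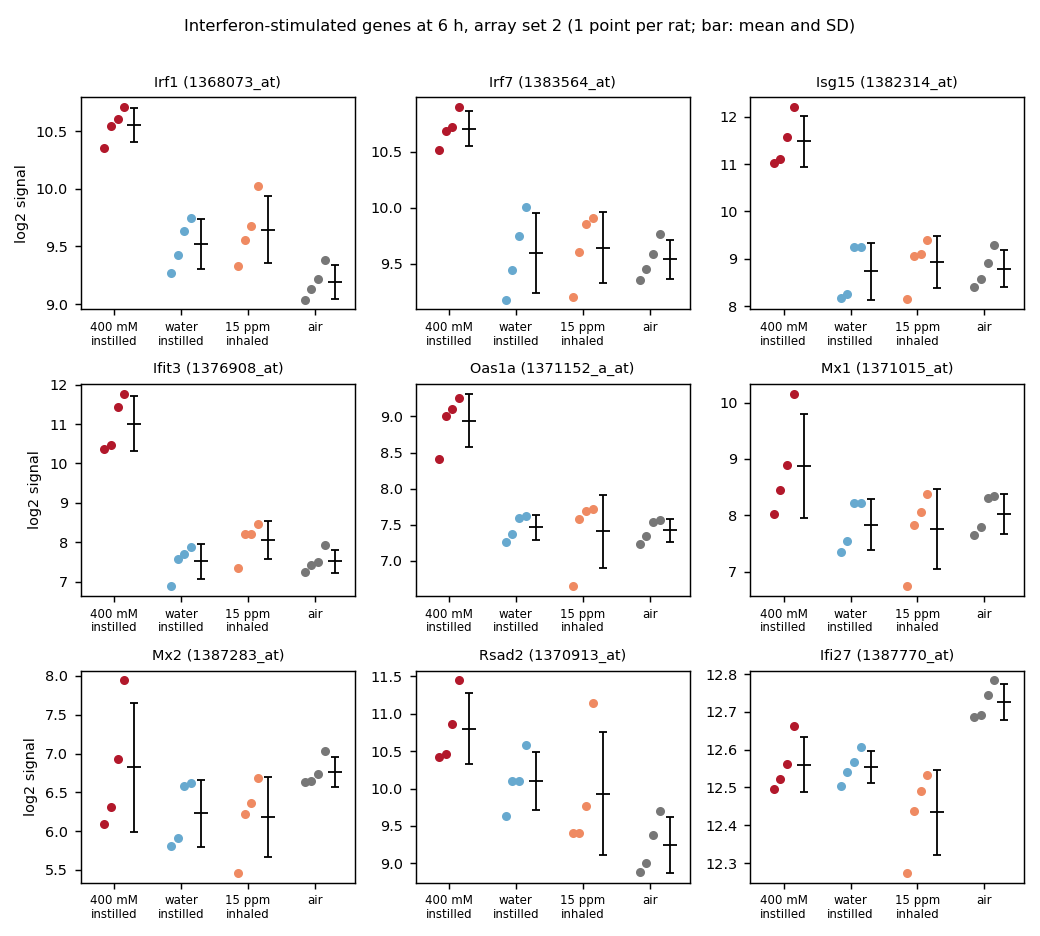
Log2 signal of the main probe set of each of the 9 members in every rat of array set 2 at 6 h, by group (400 mM instilled, water instilled, 15 ppm inhaled, air), with the group mean and SD as a bar. The instilled rats stand apart from the other 3 groups for Irf1, Irf7, Isg15, Ifit3 and Oas1a, and not for Mx1, Mx2, Rsad2 and Ifi27.

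Other measures moved with instillation. Of 8 neutrophil markers 6 rose, with a median log2 change of 1.96, and the log2 of their summed signal was 12.93 to 13.81 in instilled rats and 10.55 to 11.30 in water rats. Of 12 macrophage and dendritic cell markers 2 rose (Cd68 and Itgax), of 12 lymphocyte markers 1 rose (Cd3e), and of 4 plasmacytoid dendritic cell markers Tlr7 rose and Tcf4 fell. Of 10 epithelial markers 1 rose. In the ciliated cell list 1 of 4 markers fell (Foxj1), and none of 5 olfactory markers passed. Beside these counts, 9.83% of all probe sets were called higher and 22.2% in either direction. Against air of the same array set, all 5 olfactory markers fell after instilled formaldehyde (median -2.24), beside 30.1% of all probe sets called. After water their median was -1.44 against air, and none passed. The RNA integrity number, a score of RNA intactness, was 8.3 to 8.4 in instilled rats and 7.5 to 8.3 in water rats. The part of these differences in the member changes was not tested. In a mixed cell sample, a change in the number of cells of a type and a change in RNA per cell cannot be told apart.

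Beyond the members, 106 other genes of the interferon pathway were measured, of which 40 rose and 4 fell after instillation, with a median log2 change of 0.27. All 106 were counted through their main probe sets, and the share of all probe sets called in that comparison is the 22.2% given above. Among 7 interferon ligands only Ifng, the gene of interferon gamma, passed, by 0.19 (adjusted p = 0.04126) at signals of 3.55 in instilled rats and 3.36 in water rats, near the bottom of the range. Ifnb1, the interferon beta gene, changed by 0.10 and did not pass (adjusted p = 0.5244). Of 9 receptors and kinases, Ifngr2, a chain of the interferon gamma receptor, rose by 0.44 and the kinase gene Jak1 fell by 0.33.

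Of 13 sensors 6 rose, led by the pattern receptor Tlr2 at 2.95 and its adaptor Myd88 at 1.20, with the kinase Tbk1 at 0.49 and the RNA sensor Ifih1 at 0.57. Of 10 transcription factors 4 rose, namely Nlrc5 (0.63), Irf5 (0.54), Irf9 (0.42) and Stat2 (0.32), and 2 fell, the repressor Irf2 by 0.72 and Stat3, which signals for the interleukin-6 family, by 1.11. Of the 44 antiviral effectors, the longest list, 21 rose and none fell, with Slfn4 at 2.93, Oasl at 1.90, Herc6 at 1.34 and Parp14 at 0.96 on the log2 scale. The largest changes of these lists were in the chemokines that recruit T cells through Cxcr3, Cxcl11 at 3.93 ± 0.46 and Cxcl10 at 3.80 ± 0.47 (SE, limma, adjusted p = 1.308e-10 and 8.92e-10), and Cxcl9 (0.72) and Cxcl16 (0.38) made 4 of 6 chemokines that rose. In class I antigen presentation 2 of 12 rose, the peptide transporter Tap1 (0.79) and RT1-CE5 (0.42). Among 7 genes that restrain the pathway, Usp18, which removes Isg15 from proteins, rose by 1.50, Socs3 by 1.33 and Cish by 0.79, and Pias1 fell by 0.39.

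The second comparison was of 15 ppm inhaled with air of the same array set at 6 h. Only 1 of 10 member probe sets passed, Ifi27, which was 1.225-fold lower after 15 ppm, beside 8.49% of all probe sets called. No member was called higher. The median log2 change of the 10 was 0.08, against 0.01 over all probe sets.

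Ifi27 had log2 signals of 12.49, 12.53, 12.44 and 12.27 in the 15 ppm rats, against 12.69, 12.78, 12.74 and 12.69 in the air rats. Every 15 ppm rat was below every air rat, where groups not overlapping made up 16.3% of all probe sets, and the change was -0.29 ± 0.08 (SE, limma, adjusted p = 0.0136). Without 15 ppm rat 342 it was -0.24 and did not pass (adjusted p = 0.1018). Against air of array set 1 it was -0.28 (adjusted p = 0.01224), and there Mx2 also passed, at -0.996 (adjusted p = 0.01053), in a comparison that called 15.3% of all probe sets and spans both array sets.

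Irf1 had 10.03, 9.55, 9.33 and 9.68 in the 15 ppm rats, against 9.38, 9.13, 9.22 and 9.04 in the air rats, which overlap in 1 rat of each group. Its change of 0.45 did not pass (adjusted p = 0.1236, limma). Irf7 had 9.86, 9.61, 9.91 and 9.21 in the 15 ppm rats, against 9.36, 9.45, 9.76 and 9.59 in the air rats. Isg15 had 9.10, 9.06, 9.40 and 8.15 in the 15 ppm rats, against 8.39, 8.56, 9.28 and 8.91 in the air rats. Both changes were near 0, at 0.10 for Irf7 and 0.14 for Isg15, and the 95% interval of Isg15 ran from -0.63 to 0.91.

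Ifit3 had 8.21, 8.21, 8.46 and 7.34 in the 15 ppm rats, against 7.49, 7.42, 7.92 and 7.24 in the air rats. Oas1a had 7.72, 7.69, 7.57 and 6.65 in the 15 ppm rats, against 7.35, 7.23, 7.54 and 7.57 in the air rats. The changes were 0.54 for Ifit3 (adjusted p = 0.6102, limma) and -0.02 for Oas1a. In both, rat 342 was the lowest of the 15 ppm rats, and the groups overlapped.

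Mx1 had 8.37, 7.82, 8.06 and 6.74 in the 15 ppm rats, against 7.80, 7.64, 8.35 and 8.30 in the air rats, a change of -0.28. Mx2 had 6.22, 6.36, 6.69 and 5.46 in the 15 ppm rats, against 6.73, 6.65, 7.04 and 6.63 in the air rats, a change of -0.58 (adjusted p = 0.2358, limma). Its dim probe set had 3.54, 3.46, 3.66 and 3.41 in the 15 ppm rats, against 3.50, 3.38, 3.48 and 3.44 in the air rats. Rat 342 was again the lowest of its group at all 3 probe sets. Rsad2 had 11.14, 9.77, 9.41 and 9.40 in the 15 ppm rats, against 9.01, 9.39, 9.70 and 8.89 in the air rats, so that 1 rat carried most of the change of 0.69 (adjusted p = 0.3229, limma).

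Of the 106 other pathway genes 2 rose and 3 fell at 15 ppm, beside the 8.49% of all probe sets called. The risers were Myd88 (0.66) and Cxcl16 (0.42), and Jak1 fell by 0.25, Pias1 by 0.39 and the class I gene RT1-S3 by 0.37. None of the 44 antiviral effectors passed. Of 8 neutrophil markers 4 rose at 15 ppm, with a median of 0.71, and the log2 of their summed signal was 11.86 to 12.15 in 15 ppm rats and 9.79 to 10.55 in air rats. Of 10 epithelial markers 2 rose, with a median of 0.05, and of 3 red cell markers 1 rose, with a median of 0.49. No marker of ciliated cells, olfactory epithelium, macrophages and dendritic cells, lymphocytes or plasmacytoid dendritic cells passed. The RNA integrity number was 7.7 to 8.2 in 15 ppm rats and 7.3 to 7.8 in air rats. The part of these marker and RNA integrity differences in the member values was not tested.

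**Figure D2:**
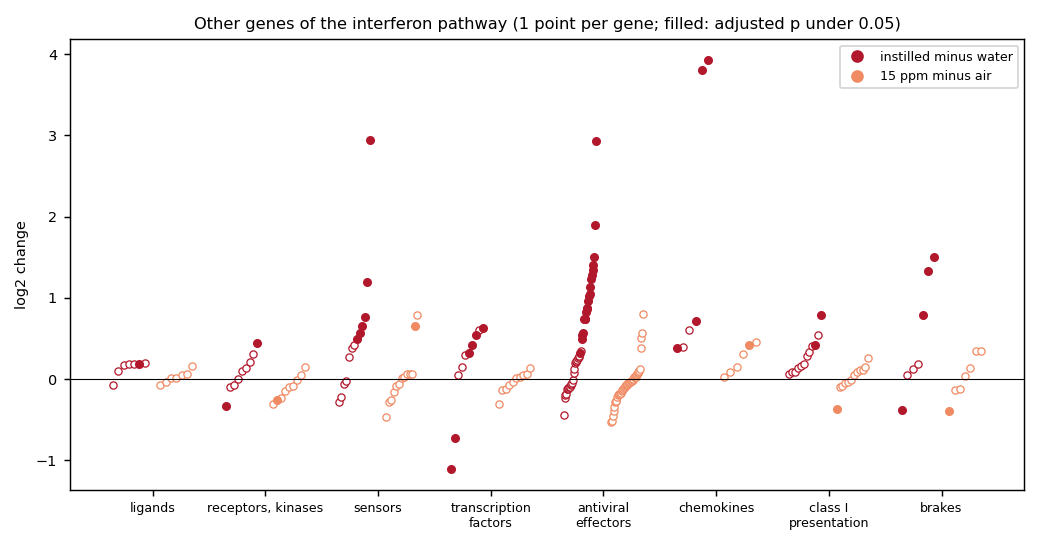
Log2 change of each of 106 other interferon pathway genes, 1 point per gene and list, for instilled minus water and for 15 ppm minus air (filled points: adjusted p under 0.05). After instillation 40 genes rose and 4 fell, with Cxcl11, Cxcl10, Tlr2 and Slfn4 highest, while at 15 ppm 2 rose and 3 fell.

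The difference between the routes was tested directly, as the 15 ppm change over air minus the instilled change over water. It passed for 3 of 10 member probe sets, all smaller at 15 ppm, beside 0.879% of all probe sets. The difference was -2.96 ± 0.69 for Ifit3 (SE, limma, adjusted p = 0.01292), -2.60 ± 0.55 for Isg15 (SE, limma, adjusted p = 0.004045) and -1.50 ± 0.38 for Oas1a (SE, limma, adjusted p = 0.03268). Irf1 (-0.58), Irf7 (-1.01), Mx1 (-1.33), Mx2 (-1.17) and Ifi27 (-0.30) did not pass, with adjusted p between 0.1889 and 0.4255. Rsad2 differed by -0.01 with a 95% interval of -1.09 to 1.07, too wide to show that the routes were alike. The amounts delivered by each route were not matched, so dose and route cannot be told apart.

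The Ifit3 difference was lost without instilled rat 374 (-2.71, adjusted p = 0.07063). The Oas1a difference was lost without that rat (-1.44, adjusted p = 0.1028), without 15 ppm rat 342 (-1.24, adjusted p = 0.1324), without water rats 352 (-1.43, adjusted p = 0.08536) and 354 (-1.47, adjusted p = 0.05228) and without air rats 323 (-1.46, adjusted p = 0.06201) and 325 (-1.45, adjusted p = 0.06453). The Isg15 difference passed whichever single rat was left out. Of the other pathway genes 9 of 106 passed, all smaller at 15 ppm. They were Cxcl11 (-3.84), Cxcl10 (-3.34), Tlr2 (-2.16), Oasl (-2.03), Usp18 (-1.62), Rtp4 (-1.39), Herc6 (-1.31), Oas1b (-0.99) and Parp14 (-0.90).

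**Figure D3:**
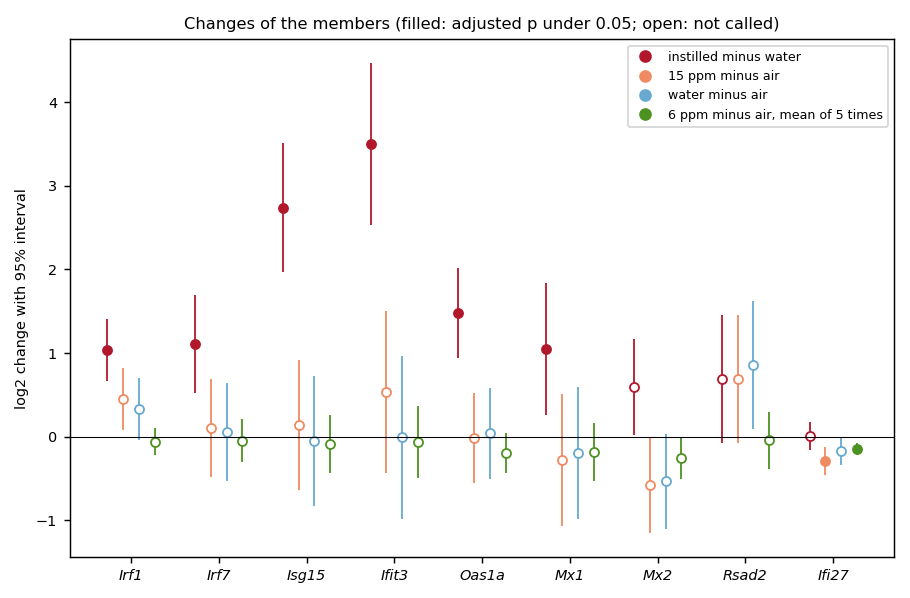
Log2 change with its 95% interval for the main probe set of each member in 4 comparisons, filled where the adjusted p was under 0.05: instilled minus water, 15 ppm minus air, water minus air, and 6 ppm minus air as the mean of 5 times. The instilled changes of Ifit3 (3.50) and Isg15 (2.74) are the largest, and the filled points of Ifi27 at 15 ppm (-0.29) and 6 ppm (-0.15) lie below 0.

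Water alone, against air of the same array set, gave no called member among 0.0129% of all probe sets called (limma). At an unadjusted p of 0.05, 2 of 10 passed, Rsad2 higher by 0.86 (adjusted p = 0.4245) and Ifi27 lower by 0.17 on the log2 scale (adjusted p = 0.4618). Every water rat was below every air rat for Ifi27 and for the main Mx2 probe set, where groups not overlapping made up 9.84% of all probe sets. The air rats of array set 2 and those of array set 1 at 6 h gave no called member either, in a comparison that called 4.7% of all probe sets, and 0 of 10 passed at an unadjusted p of 0.05.

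The third question was what 0.7, 2 and 6 ppm did over 5 times of collection. No member probe set was called in any of the 15 comparisons with air of the same time, 150 tests in all (limma). At an unadjusted p of 0.05, 9 of the 150 passed, or 6%, against 6.284% of all probe sets in these comparisons. Called shares over all probe sets, from 6 h to 24 h, 5, 8 and 19 days, were 0%, 0%, 0.00644%, 0% and 0% at 0.7 ppm, 0.00322%, 0%, 0.0741%, 0% and 0% at 2 ppm, and 0.245%, 0.00322%, 0.119%, 0.029% and 0.412% at 6 ppm. The log2 changes of the members ran from -1.23, for Ifit3 at 6 ppm and 5 days, to 0.71.

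The extreme at 5 days shows the spread behind these values. Ifit3 had 6.82, 6.42, 7.24 and 7.57 in the rats at 6 ppm, against 7.04, 8.23, 8.96 and 8.74 in air rats at 5 days. The groups overlapped through 1 low air rat.

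Ifi27 came nearest to a call. At 19 days it had 12.40, 12.54, 12.57 and 12.55 in the 6 ppm rats, against 12.85, 12.78, 12.76 and 12.81 in the air rats. Every exposed rat was below every air rat, by 0.28 on average, at an adjusted p of 0.0918 in limma. The main Mx2 probe set was also lower in every 6 ppm rat than in every air rat at 19 days, with 6.79, 6.77, 6.75 and 6.30 in the 6 ppm rats against 6.89, 7.31, 6.80 and 7.08 in the air rats (change -0.37, adjusted p = 0.6579). Groups not overlapping made up 6.77% of all probe sets in that comparison. At 6 h Ifi27 had 12.68, 12.41, 11.98 and 12.64 in the 6 ppm rats, against 12.74, 12.77, 12.68 and 12.68 in the air rats, a change of -0.29 with rat 286 the lowest (adjusted p = 0.1054, limma). That comparison passed without rat 283 (-0.37, adjusted p = 0.02261) or without rat 287 (-0.36, adjusted p = 0.04642). Without rat 286 the 19-day comparison passed (-0.28, adjusted p = 0.04333). That rat was collected at 6 h and is in neither 19-day group, so the 19-day change itself was the same. All groups of the fit share the estimate of the spread.

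Averaged over the 5 times, Ifi27 was lower at 6 ppm by 0.15 ± 0.04 on the log2 scale (SE, limma, adjusted p = 0.008479), the only called member beside 6.37% of all probe sets. Of its 5 changes, those at 6 h, 5 days and 19 days were -0.29, -0.19 and -0.28, and those at 24 h and 8 days were -0.02 and 0.06. It passed whichever single rat was left out, but it did not pass with the RNA integrity number as a covariate (-0.10, adjusted p = 0.1181). The fit with the covariate used only the 85 arrays that had this number. It left out rats 286, 296 and 308, each the lowest for Ifi27 in its 6 ppm group. The covariate and the loss of these rats cannot be told apart. At 2 ppm the mean change was -0.12 (adjusted p = 0.1419; 0.361% of all probe sets called), and at 0.7 ppm it was 0.01 (0% called), with no member called at either. Of the 106 other pathway genes 1 rose and 3 fell at 6 ppm, beside the 6.37% of all probe sets called: Il12a rose by 0.15, and Ifi35 and Lgals3bp, an antiviral effector and a secreted glycoprotein, each fell by 0.26 and Ptpn6, a phosphatase that restrains Janus kinases, by 0.19.

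**Figure D4:**
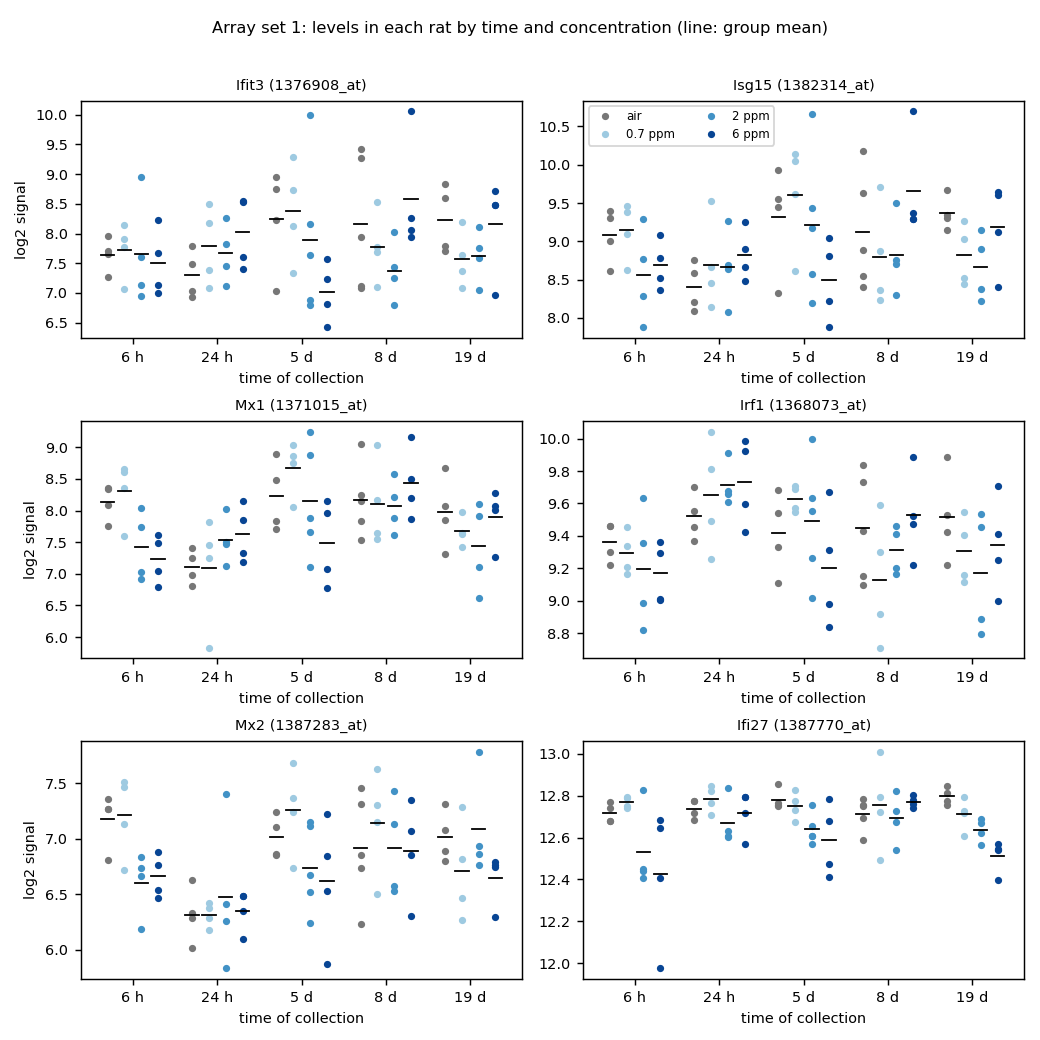
Log2 signal of 6 members in every rat of array set 1, by time of collection and, at each time from left to right, air, 0.7, 2 and 6 ppm, with group means as lines. Concentrations overlap at nearly every time. Mx2 is lower and Irf1 higher at 24 h than at 6 h, and a few rats, such as 1 at 2 ppm and 5 days and 1 at 6 ppm and 8 days, stand high for Ifit3 and Isg15.

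Some members differed between times of collection. Levels at 24 h were set against those at 6 h as the mean over the 4 concentrations of array set 1, a comparison added after the values were seen. Irf1 was higher at 24 h by 0.40 ± 0.09 (SE, limma, adjusted p = 0.0006916), and Mx2 (1387283_at) was lower by 0.55 ± 0.14 on the log2 scale (SE, limma, adjusted p = 0.002796). With Ifi27, higher by 0.12 (adjusted p = 0.03138), 3 of 10 probe sets passed, beside 21.7% of all probe sets.

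Irf1 means at 24 h were 9.52, 9.65, 9.71 and 9.73 for air, 0.7, 2 and 6 ppm, against 9.36, 9.29, 9.20 and 9.17 at 6 h. Mx2 means at 24 h were 6.31, 6.31, 6.48 and 6.35 in the same order, against 7.18, 7.21, 6.61 and 6.66 at 6 h. Each of the 4 concentrations moved the same way in both genes. The Irf1 and Mx2 calls held whichever single rat was left out, while the Ifi27 call was lost without rat 205 (0.11, adjusted p = 0.05119), 207 (0.11, adjusted p = 0.05265), 209 (0.11, adjusted p = 0.05824), 212 (0.10, adjusted p = 0.06707), 286 (0.08, adjusted p = 0.1206) or 290 (0.11, adjusted p = 0.0507). Across the air rats alone over 5 times, no member passed an F-test in limma (11.4% of all probe sets called). At an unadjusted p of 0.05, 2 of 10 passed there, Mx1 (adjusted p = 0.1463) and Mx2 (adjusted p = 0.1573).

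Of the 106 other pathway genes 10 rose and 4 fell at 24 h against 6 h, beside the 21.7% of all probe sets called. Stat3 and its target Socs3 rose by 0.90 and 0.95, the receptor chains Ifngr2 and Ifnar1 by 0.38 and 0.23, Myd88 by 0.35, the chemokine Ccl5 by 0.41, Psmb10 of the immunoproteasome by 0.26, and the effectors Tdrd7, Ifitm2 and Ifi30 by 0.13, 0.23 and 0.23. Irf3 fell by 0.20, the RNA sensor Rig1 by 0.30, Ifi44 by 0.27 and Uba7, which activates Isg15 for attachment, by 0.17.

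Rats of the same group differed in their members together. After group means were removed, each of 36 pairs of members was correlated over the 98 rats, with permutations of rats within groups. Isg15 and Ifit3 correlated at r = 0.90 and rho = 0.88 (permutation p = 1e-05 for both, the smallest that 100000 permutations can give, adjusted p = 1.89e-05 over 36 pairs), and at 0.88 without the 2 rats farthest from the median of Isg15. Irf7 correlated with Isg15 at r = 0.85 and rho = 0.84 (permutation p = 1e-05 and adjusted p = 1.89e-05 for both), and at 0.84 without the 2 farthest rats. Of the 36 pairs 27 had an adjusted permutation p under 0.05 for r and 28 for rho, and the median r was 0.61.

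Within array set 1 the Isg15 and Ifit3 pair gave r = 0.91 and rho = 0.89 over 82 rats (permutation p = 1e-05 for both). Within array set 2 it gave r = 0.81 and rho = 0.69 over 16 rats (permutation p = 0.00123 and 0.00587, adjusted p = 0.0221 and 0.0704). In all, 26 pairs passed for r in array set 1 and 4 in array set 2, where Mx1 and Mx2 were the highest pair at r = 0.92 and rho = 0.87 (permutation p = 0.00091 and 0.00133). Mx1 and Mx2 correlated at only 0.39 in array set 1.

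Ifi27 followed the other members less closely over all rats and in array set 1. By r, 1 of its 8 pairs passed over the 98 rats, that with Mx2 (r = 0.40, rho = 0.43, permutation p = 0.00012 and 0.00019, adjusted p = 0.000196 and 0.000311), and its pair with Rsad2 had the lowest r of all, -0.16. By rho, its pair with Oas1a also passed (r = 0.21, rho = 0.25, permutation p = 0.132 and 0.0327, adjusted p = 0.169 and 0.042). In array set 2 its pairs did not run lower than the others: the median r was 0.52 over the 8 pairs with Ifi27 and 0.37 over the 28 pairs without it, none of the 8 passing there. Over the 98 rats these medians were 0.10 and 0.63, and in array set 1 they were 0.06 and 0.70. Irf1 and Mx2 correlated at 0.01. Among the 28 pairs without Ifi27, 26 passed by r over the 98 rats.

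Single rats from the ends of the order by mean standardised deviation of the members serve as examples. Being highest or lowest for many members follows in part from that choice. Other rats were mixed, such as instilled rat 365, the highest of its group for 3 members and the lowest for 2. Rat 217, at 2 ppm and 5 days, was the highest of its 5 rats for 8 of 9 members, and its Ifit3 signal of 9.99 stood beside 8.16, 6.88, 6.80 and 7.64 in the other rats of the group. Its Isg15 signal was 10.67, beside 9.44, 8.19, 8.58 and 9.17. Rat 146, at 0.7 ppm and 8 days, was highest for 8 of 9, and rat 64, in air at 8 days, and rat 298, at 6 ppm and 8 days, for 7 of 9 each. Rat 342, at 15 ppm, was lowest of its group for 8 of 9. Rats high for most members occurred in air and at 0.7, 2 and 6 ppm.

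**Figure D5:**
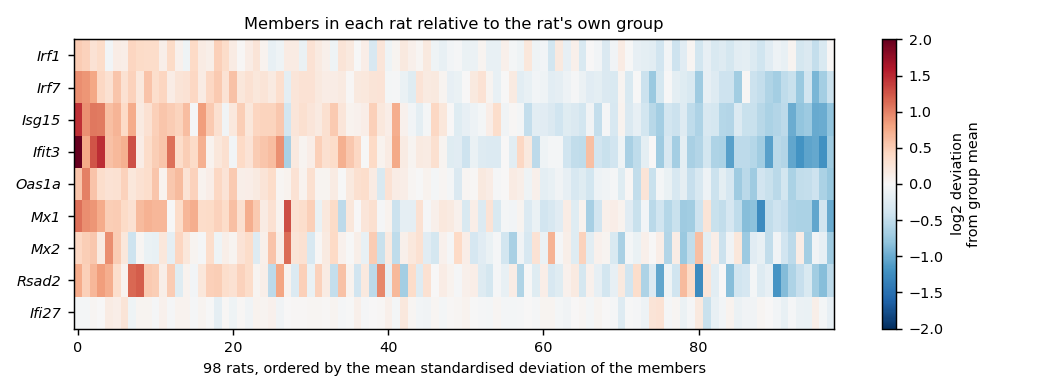
Log2 deviation of each member from the mean of the rat's own group in each of 98 rats, ordered from the highest to the lowest mean standardised deviation over the 9 members. Columns tend to hold 1 colour for most members. Mx2 departs from that colour in some rats, and the deviations of Ifi27 stay near 0. The first column is rat 217, with Ifit3 at 2.10 above its group mean.

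As a description, each marker list was given, in each rat, the deviation of its mean log2 signal from the group mean, without standardising each gene. The mean standardised deviation of the members was set against these list values over the 98 rats, both read from the same arrays. It correlated at r = 0.60 with macrophage and dendritic cell markers, 0.51 with neutrophil markers, 0.48 with plasmacytoid dendritic cell markers and 0.44 with epithelial markers. It ran at -0.36 with ciliated cell markers and -0.35 with olfactory markers, and at 0.28 and 0.25 with lymphocyte and red cell markers. Within array set 2 alone, over 16 rats, these values differed. There r was 0.42 with macrophage and dendritic cell, 0.35 with plasmacytoid dendritic cell, 0.32 with red cell and 0.21 with neutrophil markers. With epithelial and ciliated cell markers it was 0.13 each, with olfactory markers 0.08 and with lymphocyte markers -0.16. Tlr7, Bst2 and Irf8 of the plasmacytoid list are themselves known to respond to interferon. So are RT1-Da, RT1-Ba and Cd74, class II antigen presentation genes in the macrophage and dendritic cell list. The part of cell makeup in the variation between rats was not tested.

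Of 14208 other genes, the 10 whose deviations followed those of the members most closely over the 98 rats were Ifit2 (r = 0.83), Oasl (0.83), Usp18 (0.80), Slfn4 (0.80), Slfn2 (0.79), Gbp2 (0.79), Zbp1 (0.77), Rtp4 (0.77), Ifi27l2b (0.75) and Ripk3 (0.75). The 99th percentile of r over all these genes was 0.55 and the median 0.02. Within array set 2 alone the r of these 10 genes lay between 0.36 (Slfn4) and 0.88 (Rtp4). After instillation all 10 were called higher, from 0.74 for Ifi27l2b to 2.93 for Slfn4 on the log2 scale, beside 9.83% of all probe sets. Ifit2, Oasl, Usp18, Slfn4, Gbp2, Zbp1, Rtp4 and Ifi27l2b are in the pathway lists and were already counted among the genes that rose there.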

How the data were processed

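Gene expression was measured on 98 Affymetrix Rat230_2 arrays, 1 per rat. The authors deposited 1 log2 value per probe set and array, a scale inferred from their range of 2.67 to 14.83. Probe summarisation and normalization were not given in the sources used here. Of 31099 probe sets 57 control probe sets were left out. Symbols came from the array's platform annotation, by which 20826 probe sets had 1 symbol, 436 several and 9780 none listed. A gene's main probe set was the one with the highest mean. The fit used R 4.3.3 with limma 3.58.1 and the data.table package, version 1.17.8, and correlations used Python 3.11.15 with numpy 2.4.6.

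In limma, 1 linear model with a coefficient for each of 24 groups was fitted to all arrays (74 residual degrees of freedom), with moderated two-sided tests. Benjamini-Hochberg adjustment ran over all 31042 probe sets of each comparison, with calls at an adjusted p under 0.05. The fit was tested on simulated data. Alternatives were quantile and cyclic loess normalization, a filter on dim probe sets, a trended robust prior, the RNA integrity number as a covariate (85 arrays), fits to the groups of a contrast alone, other air or water controls, and leaving out each rat. The promoters came from RefSeq (GRCr8).

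Named were all members with every probe set, up to 4 called pathway genes per list by p (every called gene where a comparison had 5 or fewer), and the 10 genes most like the members. Irf9, Stat2 and Ifnb1, and every called pathway gene of the difference between routes and of 24 h against 6 h, were named after their values were seen. The members, the gene lists and the tests were chosen with earlier results of these data known. No paired analysis was possible because no rat was measured on more than 1 array. The labels give a time of 8 days that the design text lacks, and 1 label field of the 0.7 ppm rats at 8 days reads 0.07, where 0.7 was used.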

Additional observations from a re-analysis of the deposited data

Results flagged for a closer look

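Dixon's test was run in each of 24 groups for each of 10 probe sets, 240 in all, and marked a single rat in 16, or 6.67%, where chance marks about 5%. Rat 308, at 6 ppm and 19 days, was lowest of its group for Ifit3 (6.97), Irf7 (8.81) and Ifi27 (12.40), and rat 312 of the same group for Mx2 (6.30). Rat 298, at 6 ppm and 8 days, was highest for Ifit3 (10.06, next 8.26) and Isg15 (10.70, next 9.37). Rat 146, at 0.7 ppm and 8 days, was highest for Oas1a (8.96, next 7.72), and rat 342, at 15 ppm, lowest for Oas1a (6.65, next 7.57). Rsad2 was low in rat 292 at 6 ppm and 24 h (8.50). Irf7 was low in rat 60 in air at 5 days (8.97) and in rat 214 at 2 ppm and 24 h (8.88). Mx2 was low in rat 52 in air at 6 h (6.81) and high in rat 234 at 2 ppm and 19 days (7.79). Ifi27 was high in rat 63 in air at 5 days (12.85), rat 212 at 2 ppm and 24 h (12.84) and rat 206 at 2 ppm and 6 h (12.83).

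The 15 ppm change over air differed from the instilled change over water, by a test of the difference in limma, for Isg15 (-2.60, adjusted p = 0.004045), Ifit3 (-2.96, adjusted p = 0.01292) and Oas1a (-1.50, adjusted p = 0.03268).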

How the results depend on the processing

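No member changed direction in a call under any alternative run. The count of members called at 15 ppm was 1, and became 0 with quantile normalization (Ifi27 at -0.24, adjusted p = 0.05416) and 2 against air of array set 1. Of all 31042 probe sets, 2521 and 4763 were called under these 2 alternatives. The count for the mean 6 ppm effect was 1, and became 0 with the RNA integrity number as a covariate, where 1027 of all 31042 were called. Results with this covariate came from only the 85 arrays that had the number, without rat 286 among others. The count for air rats across 5 times was 0, and became 1 in a fit to those groups alone (Mx2, adjusted p = 0.04255). That fit called 3830 of all 31042 probe sets. Over 73 fits that each left out 1 rat, the counts ran from 5 to 7 for instilled against water, 0 to 1 at 15 ppm, 1 to 3 for the difference between routes, 0 to 1 over the 15 comparisons of 0.7, 2 and 6 ppm, and 2 to 3 for 24 h against 6 h. They stayed at 1 for the mean 6 ppm effect and at 0 for water against air, for air of both array sets and for air across times.

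For instilled against water, Mx1 did not pass with the RNA integrity number as a covariate (0.98, adjusted p = 0.06237), in a fit to those groups alone (1.05, adjusted p = 0.1382) or against air (0.85, adjusted p = 0.09352). The Oas1a difference between routes was not called in a fit to its groups alone (adjusted p = 0.05467), nor was Ifi27 at 24 h against 6 h (adjusted p = 0.1095, and 0.3344 with the covariate). Of 1130 member changes in fits that left out 1 rat, the single comparisons of 0.7, 2 and 6 ppm not counted, 1111 stayed on their side of the threshold with the same direction, 18 lost the call and 1 gained it. The cause was not tested in any of these cases. No paired analysis was possible because no rat was measured on more than 1 array. Mx2 at 1369202_at lay near the bottom of the array's range, and Ifi27 near its top.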
